A study of Mus musculus with 2 samples.

Results

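Gap junction and desmosome genes were examined in 1 liver sample of wild-type C57BL/6 mice and 1 of C57BL/6 mice of the genotype Alb-Cre;CAG-floxed neo-Snail. The members were 4 connexin genes (Gjb1, Gjb2, Gja1 and Gja4) and 6 desmosome genes (Pkp2, Dsp, Jup, Dsg2, Dsc2 and Perp). They were found by the gene name that the scanner files give to each probe, which returned 12 of 39429 non-control probes and 10 of 31829 gene names. Amplified, Cy3-labelled RNA of each liver was read on 1 Agilent array in a single colour. In Alb-Cre mice the albumin promoter drives Cre recombinase in hepatocytes, CAG is a strong and widely active promoter, and a floxed cassette is one that Cre can remove. The labels used here do not state age, sex, pooling of animals or any tumour in the tissue. With 1 array for each genotype replicates are lacking, no test was possible, and a difference between genotypes and a difference between individual samples cannot be told apart.

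Gap junctions are channels that pass ions and small metabolites directly between neighbouring cells, and each is built from connexins. Hepatocytes join through Cx32, the product of Gjb1, and Cx26, the product of Gjb2, whereas Cx43 (Gja1) and Cx37 (Gja4) are known in liver mainly from non-parenchymal and vascular cells. Desmosomes hold epithelial cells together. In them the desmosomal cadherins (Dsg2, Dsc2) bind across the cell gap, the armadillo proteins plakoglobin (Jup) and plakophilin 2 (Pkp2) bind the cadherin tails, and desmoplakin (Dsp) ties this plaque to keratin filaments. Perp is a tetraspan membrane protein that desmosomes of mouse stratified epithelia need, and it was described as a target of p53 and of p63.

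Each value rests on a single 60-base probe, other than those of Dsp and Dsg2, which had 2 probes each. The first 30 bases are shown for the probes of the 3 members with the largest differences, of the other hepatocyte connexin, and of Dsp, whose probe was printed in 10 spots, so that the measured transcripts can be identified.
Gjb2: caagttgaaccattaccactatgccttatg
Pkp2: tgagtgtgcaccggaggaacacctgagaaa
Perp: gaaaatttgggaatgcgtgtctctgaatac
Gjb1: tccccagttcccaaggcccctctctctgca
Dsp: aaattacactgactactggtggcttagtac
On the mouse build mm9 the Gjb2 probe lies at chr14:57717629-57717688 on the minus strand. The Pkp2 probe lies at chr16:16272648-16272707, the Perp probe at chr10:18576697-18576756, the Gjb1 probe at chrX:98580902-98580961 and this Dsp probe at chr13:38290121-38290180, all on the plus strand. No annotation of that build was used here, so their position relative to coding sequence is not stated.

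The scanner software called 50.7% of 43020 non-control spots well above background for wild-type liver and 54.0% for the liver labelled Snail. Signals are quoted as the scanner software processed them. Differences are log2 differences of signals divided by each array's 75th percentile, 232.7 for wild-type liver and 302.1 for the liver labelled Snail. For probes printed at least 5 times, the SD of the log2 difference over spots was taken by the geometric mean of the 2 arrays' signals. Its median was 0.04 at mean signals above 1000, 0.07 from 100 to 1000 and 0.19 under 100. This spread covers array noise and no difference between animals. Snai1, the gene of the transgene's name, had dim signals of 23.2 and 22.3, in that order, a log2 difference of -0.44 at a spread of 0.19. The signals of its single spot were almost equal before scaling, so most of that difference comes from the scaling. Snai1 was thus not higher, as the label would have it. Whether its probe lies within the transgene is not stated in the labels, so the value does not settle the label. The second array is therefore called the library labelled Snail, and every direction given depends on its label.

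Of the 8 members measured on both arrays, 3 were far lower in the library labelled Snail, and these came from both kinds of junction. Perp was 30.2-fold lower, Gjb2 21.7-fold and Pkp2 16.7-fold. The other 5, Gjb1, Gja4, Dsp, Dsg2 and Dsc2, were less than 2-fold apart. As background, both arrays measured 15447 gene names, of which 6.34% were lower by 2-fold or more, 3.97% were higher by as much, 0.259% (40 genes) were lower by 16-fold or more, and 0.162% (25 genes) were higher by 16-fold or more. The 16-fold threshold was chosen after the values were seen. All 3 of the far lower members are among those 40 genes. With normexp, another background correction, the log2 difference of Pkp2 was -3.28, short of 16-fold.

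**Figure D1:**
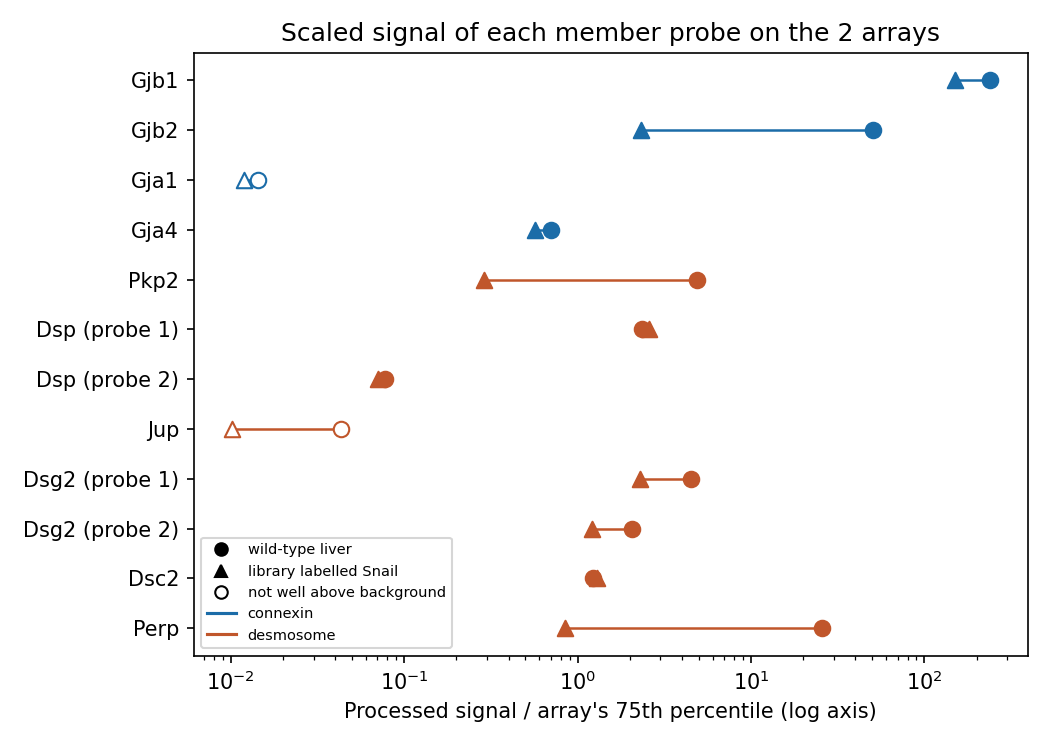
Processed signal of each member probe divided by its array's 75th percentile (log axis), in wild-type liver (circles) and in the library labelled Snail (triangles), 1 array each. Open symbols are not well above background, and signals of different probes are not comparable with each other. The long lines are those of Gjb2, Pkp2 and Perp; the 2 points of Jup, also far apart, were both not well above background.

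Among the connexins, Gjb2 gave a signal of 11744 with wild-type liver and 702 with the library labelled Snail. Both were well above background, and the log2 difference was -4.44. The spot-to-spot spread was 0.04 at mean signals above 1000, and 0.07 from 100 to 1000, where the second signal lies. It was at rank 27 from the lowest among 19046 probes measured on both arrays. Gjb1, which encodes the other hepatocyte connexin, had signals of 55319 and 45083, a log2 difference of -0.67 or 1.59-fold lower. Bright probes as a class were slightly lower in this library, with a median of -0.15 over 1333 probes of mean signal above 10000. Against the median of probes of like signal the Gjb1 difference was -0.52, and under quantile normalization it was -0.32. Both hepatocyte connexins were thus lower, Gjb2 far more than Gjb1.

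Gja4, the Cx37 gene of vascular endothelium, had signals of 164 and 171, and after scaling it was 1.25-fold lower (log2 difference -0.32, at a spread of 0.07). Gja1 was printed in 10 spots, and none of them was well above background on either array. Its spot signals ran from 2.73 to 6.25, with a median of 3.11, in wild-type liver and from 2.61 to 8.29, with a median of 3.26, in the library labelled Snail. The 2 ranges overlap, and no fold is given for it. Cx43 transcripts were therefore not detectable by this probe in either liver.

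Among the desmosome genes, Perp gave a signal of 5942 with wild-type liver and 256 with the library labelled Snail. Its log2 difference of -4.92 was the lowest of the members, at rank 13 from the lowest among all probes. Pkp2, the plakophilin of simple epithelia and heart, had signals of 1129.5 and 87.6, a log2 difference of -4.06 at rank 40. All 3 far lower members stayed well above background in the library labelled Snail, so each fold is a measured one and not a bound.

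The desmosomal cadherins differed from one another. Dsg2 was measured by 2 probes, with signals of 1045 and 688 on the first and 479 and 367 on the second. Their log2 differences were -0.98 and -0.76, or 1.97-fold and 1.70-fold lower, so both probes were lower and under 2-fold. Dsc2, the partner cadherin, had signals of 287 and 391, which after scaling gave a log2 difference of 0.07, as large as the spread of 0.07. Dsg2 and Dsc2 are both on chromosome 18, and their probe sequences are not shown.

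Dsp, the link to keratin filaments, was the most closely measured member. The probe shown above was printed in 10 spots, with signals from 529 to 572 (median 548) in wild-type liver and from 744 to 864 (median 778) in the library labelled Snail. The signals do not overlap before scaling. After scaling, the mean log2 difference was 0.13 with an SD over the 10 spots of 0.05, and each spot was between 0.07 and 0.23. The second Dsp probe, whose mm9 coordinates span 1100 bases on chromosome 13, was dim, at 18.1 and 21.4, with a log2 difference of -0.13 at a spread of 0.19. Averaged over both probes, Dsp had a difference of 0.00. The single probe of Jup was below that call on both arrays, at 10.01 and 3.05, and it is given no fold.

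**Figure D2:**
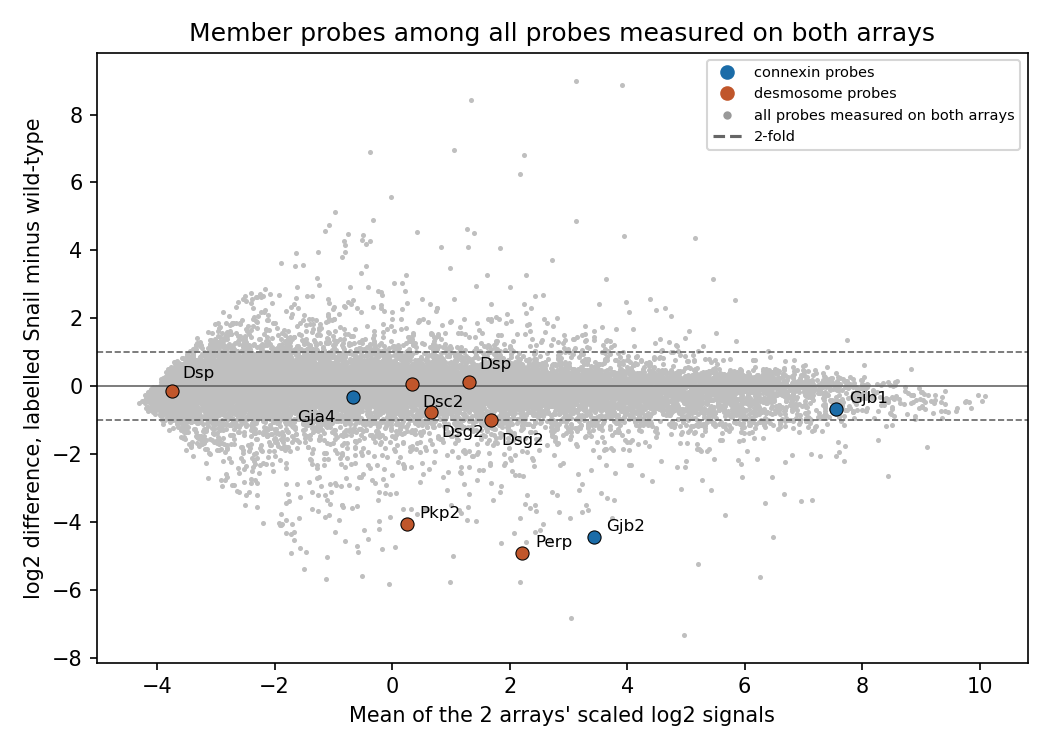
log2 difference (library labelled Snail minus wild-type) of each of 19046 probes measured on both arrays against the mean of the 2 scaled log2 signals, with the member probes in colour and dashed lines at 2-fold. Perp, Gjb2 and Pkp2 lie between -4.92 and -4.06, and every other member probe measured on both arrays lies between -0.98 and 0.13.

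Set against each other, the connexins and the desmosome genes overlapped. Of 3 measured connexins 1 was past 2-fold lower and 0 past 2-fold higher, and their log2 differences ran from -4.44 to -0.32 around a median of -0.67. Of 5 measured desmosome genes 2 were past 2-fold lower and 0 past 2-fold higher, and their differences ran from -4.92 to 0.07 around a median of -0.87. The median of all genes was -0.03. The difference between the medians of the sets was 0.20, connexins minus desmosome genes, and it turned to -0.27 when probes with a signal under 100 on either array, Pkp2 among them, were left out. Each set held both far lower members and members under 2-fold, and with so few genes neither set can be called lower than the other.

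**Figure D3:**
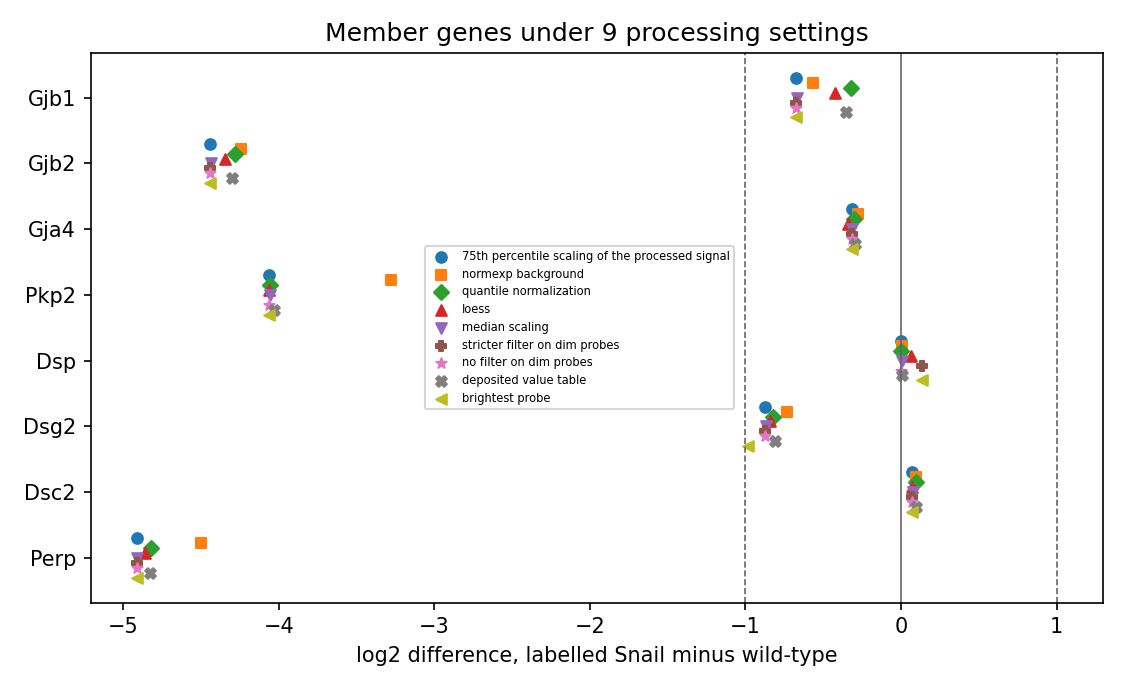
log2 difference of each member gene measured on both arrays under 9 processing settings (1 symbol each), with dashed lines at 2-fold. Perp, Gjb2 and Pkp2 lie left of the 2-fold line in each setting in which they had a value, from -4.92 to -3.28, and the other 5 genes lie inside it in each setting.

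Of all probes, 45.5% were below the background call on both arrays, 4.74% passed it with the liver labelled Snail alone and 1.44% with wild-type liver alone. Of 19 other connexin and pannexin genes, 17 were below the background call on both arrays. Panx1, a pannexin that forms membrane channels, was measured on both, with a log2 difference of 0.40.

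Of 12 other desmosome and plakin genes, 6 were below the background call on both arrays, among them all 5 other desmoglein genes, and 4 were measured. Pkp4, an armadillo protein also found at adherens junctions, was 2.44-fold higher, with signals of 212 and 671. Pkp3, a plakophilin of most epithelia, had signals of 1968 and 2374 and a log2 difference of -0.11. Evpl, which encodes the desmosome-linked plakin envoplakin, was 2.90-fold lower at dim signals of 54.0 and 24.2, and its relative periplakin, Ppl, was 1.81-fold lower. With normexp 0 of these 4 were past 2-fold lower. Dsc3 and Pkp1 passed the background call in the liver labelled Snail alone, at least 1.16-fold and at least 1.56-fold higher, as did 4.74% of all probes. The plakophilins therefore had different directions, with Pkp2 lower, Pkp4 higher and Pkp3 under 2-fold.

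Adherens junctions share plakoglobin with desmosomes, and all 10 genes of that list were measured. Past 2-fold lower were 2 and past 2-fold higher 0, around a median of -0.19. The 2 became 1 with normexp or with the brightest probe of each gene, and 0 with a minimum signal of 100. Cdh1, the E-cadherin gene, was 15.2-fold lower by 1 probe, with signals of 260 and 22.2. The second is dim, not far above 12.9, the lowest signal well above background in the liver labelled Snail. Vcl, which encodes the actin-linking protein vinculin, was 2.06-fold lower. The catenin genes, whose products bind the cadherin tail, are given for that role and were named after their values were seen. They were under 2-fold, at 0.40 for Ctnna1, -0.21 for Ctnnb1 and -0.09 for Ctnnd1. Cdh2, the N-cadherin gene, named in the same way, was at -0.17. Of the keratins that desmosomes hold in hepatocytes, Krt8 had a difference of 0.39 and Krt18 of -0.82. The cholangiocyte keratins Krt19 and Krt7 were below the background call on both.

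**Figure D4:**
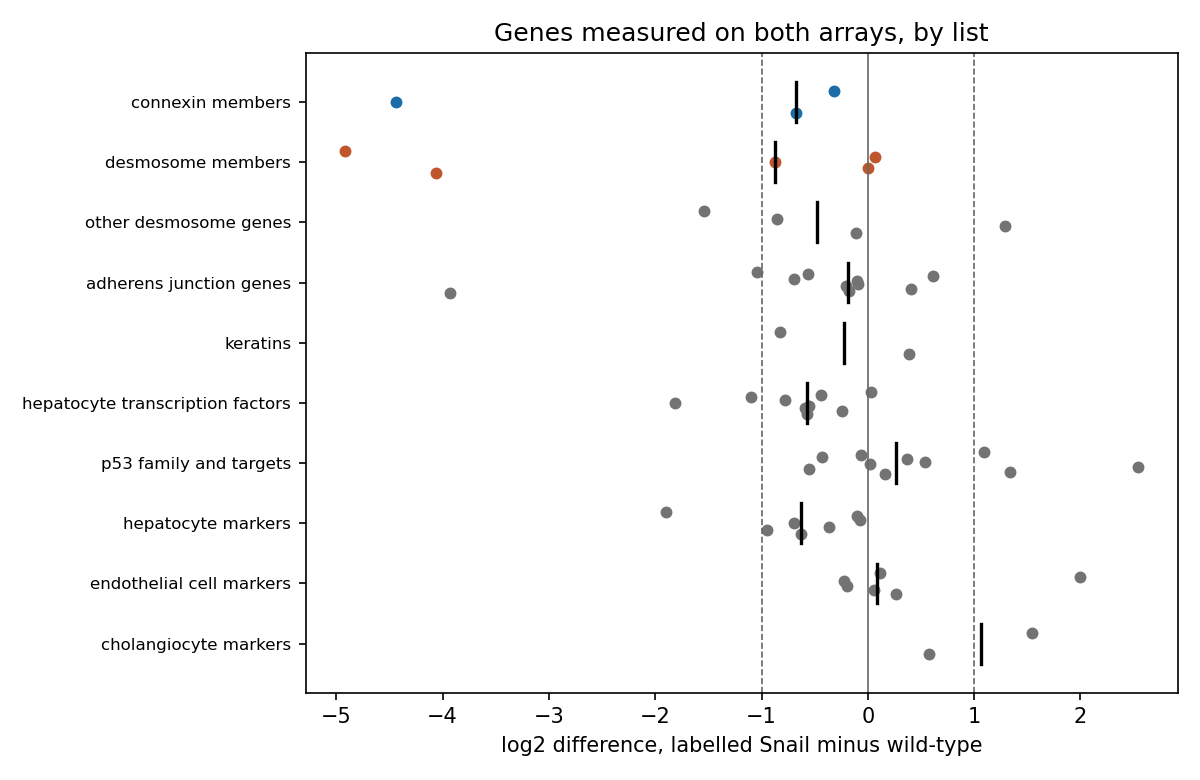
log2 difference (library labelled Snail minus wild-type) of each gene measured on both arrays in 10 lists, with the median of each list as a black bar and dashed lines at 2-fold. Perp, Gjb2, Pkp2 and the adherens junction gene Cdh1 (-3.93) lie at -3.93 or lower, and the lowest gene of the remaining lists is at -1.90.

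Levels in a whole liver depend on its cells, and fewer cells of a type and less RNA per cell cannot be told apart here. Of 7 measured hepatocyte markers 7 had a difference below 0, from -1.90 to -0.08 around a median of -0.63, and 1, Arg1, was past 2-fold lower. Of all genes 52.6% had a difference below 0. The scaled signals of the hepatocyte markers summed to 2192 for wild-type liver and 1509.9 for the library labelled Snail, mostly those of Alb, Ass1 and Ttr. In this sum and those below, the brightest probes weigh most and probes below the background call are included. Signals of different probes are not comparable, so a sum can differ in direction from its list's median. Gjb1, at -0.05 from that median, and Dsg2, at -0.25 from it, were within the range. Gjb2, Pkp2 and Perp were below all 7 markers, at -3.82, -3.44 and -4.29 from the median. The part of cell composition in these differences was not tested.

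For Gja4 the endothelial markers are the comparison. Of 8 such markers 6 were measured, with a median of 0.08 and a range from -0.23 to 1.99, the highest being the sinusoidal and lymphatic marker Lyve1, and 2 (Tek and Emcn), like 4.74% of all probes, passed the background call in the liver labelled Snail alone. Their summed scaled signals were 24.4 and 21.4, mostly those of Kdr and Stab2. Averaged per gene, Kdr and Stab2 had log2 differences of -0.20 and -0.23. Kdr had 2 probes, whose differences were 0.24 apart, and the sum holds only the brighter, with signals of 2887 and 3009. Gja4, at -0.32, was below all 6 as averaged per gene. Given the 0.24 between the Kdr probes, it was not clearly below Kdr, and Stab2 lay close to it. Of 5 arterial endothelial markers 3 were measured, from 0.26 to 0.80, Hey1 was at least 2.03-fold higher, and Gja5, the arterial Cx40 gene, was below the background call on both arrays. Their summed scaled signals were 0.383 and 0.626.

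Other epithelial cells of the liver also carry desmosomes. Of 7 cholangiocyte markers, 4 (Krt19, Krt7, Epcam and Cftr) were below the background call on both arrays, and Spp1 and Sox9 had differences of 0.58 and 1.55. Their summed scaled signals were 0.474 and 0.843. Of 5 mesothelial markers 4 were below the call on both, and Msln was at -0.47, with summed signals of 0.257 and 0.199. These cell types were thus at or near background by most of their defining markers on both arrays. Among markers of stellate cells, which can make Cx43, and fibroblasts, 5 of 7 were measured around a median of -0.79, with Lrat at -1.01, Col1a1 at 1.32 and Des below the call on both. Acta2 passed the call in the liver labelled Snail alone, at least 1.93-fold higher. The summed signals of 51.2 and 27.3 were mostly those of 1 bright probe, of Dcn, which had signals of 11549 and 7804 and a log2 difference of -0.94. Of 4 smooth muscle markers Tagln alone was measured on both, at 0.49, with Acta2 as given, Myh11 and Cnn1 below the call and summed signals of 1.23 and 1.74. Of 6 leukocyte markers 5 were measured, around a median of 0.15 with Ms4a1 at 1.25. Their summed signals were 17.8 and 19.3, mostly those of Clec4f. The part of these cell types in the members' differences was not tested.

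Transcription factor genes of hepatocytes and genes of the p53 family were set beside the members, since hepatocyte genes such as Gjb1 depend on the first and Perp was described as a target of the second. Of 9 measured hepatocyte factors 2, Foxa3 (-1.82) and Onecut1 (-1.10), were past 2-fold lower and 0 past 2-fold higher, around a median of -0.57. The p53 family and its targets had a median of 0.26 over 10 measured genes, of which 3 were past 2-fold higher and 0 past 2-fold lower. The cell cycle inhibitor gene Cdkn1a was 5.82-fold higher, with signals of 60.5 and 458. Trp63, which encodes p63, was 2.53-fold higher, with signals of 1907 and 6262, and Phlda3 2.13-fold higher. Cdkn1a and Trp63 had 2 probes each, and each value rests on the only probe measured on both arrays. Neither value is thus backed by a second probe. Trp53 itself, named after its value was seen, was at 0.16. Perp thus had the opposite direction to Cdkn1a, Trp63 and Phlda3, which were named for being past 2-fold higher. Of the 10 measured genes 3 had a difference below 0, the lowest being Trp73 at -0.55, against 52.6% of all genes. Whether any of these genes bears on the members was not tested.

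Snail family proteins bind the E-box letters CAGGTG, and the reverse complement CACCTG on the other strand, so both were searched in RefSeq promoter windows of GRCm38.p6, from 250 bases before to 50 bases after a gene's start. Windows were matched for 6 of the 10 members, Gjb1, Gjb2, Gja1, Gja4, Dsp and Jup, with 9 windows in all since Gjb1 has 4 starts. An E-box was in 3 windows of 3 genes, against 20.2% of all 32851 windows. The Gjb2 box begins 9 bases before the start, the box in 1 of the Gjb1 windows 168 bases before it, and the Dsp box lies in the 50 bases after the start. The 250 bases before the start of Gjb2 and of that Gjb1 window are printed because these are the 2 hepatocyte connexins whose differences were so unlike, with the E-box in capitals, 5′ to 3′ on the strand of the gene. They are chr14:57104703-57104952, minus strand, and chrX:101383482-101383731, plus strand.
Gjb2: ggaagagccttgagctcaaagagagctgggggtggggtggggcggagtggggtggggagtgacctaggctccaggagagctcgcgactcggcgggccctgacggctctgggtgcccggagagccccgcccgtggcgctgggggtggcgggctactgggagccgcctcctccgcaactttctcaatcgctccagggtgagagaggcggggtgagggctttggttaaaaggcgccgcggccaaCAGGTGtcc
Gjb1: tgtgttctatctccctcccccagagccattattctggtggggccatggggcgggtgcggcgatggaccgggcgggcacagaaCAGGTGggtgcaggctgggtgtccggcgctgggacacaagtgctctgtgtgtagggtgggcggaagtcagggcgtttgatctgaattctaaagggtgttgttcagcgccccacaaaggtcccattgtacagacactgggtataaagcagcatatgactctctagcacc
The letters were thus in a window of Gjb2, 21.7-fold lower, of Gjb1, 1.59-fold lower, and of Dsp. The difference of Dsp was 0.13 on its 10-spot probe and -0.13 on its dim one. Perp and Pkp2, also far lower, had no matched window and were not searched. A match is a description of these letters and not a binding site.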

How the data were processed

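Each array was read with Agilent Feature Extraction, version 9.5.1.1 per the submitters' processing notes. The deposited intensity values had background removed and trends across the array corrected, per the file headers, with no scaling across arrays. A deposited value table, also intensity, was read. Its 2 columns share a median of 17.3, and their log2 values followed their own array (r = 1.00, against 0.976 and 0.977 for the other array, across 39429 probes); how it was scaled is not stated in those sources, and it served as an alternative.

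Control spots and 287 spots marked as outliers on either array were left out, and 0 spots were saturated. A probe counted as well above background when over 50% of its spots were. Probes well above background on both arrays were averaged per gene. Where only 1 array was, the bound sets the bright signal against the higher of the dim signal and the lowest signal well above background (13.8 for wild-type liver, 12.9 for the liver labelled Snail). Calculations used Python 3.11.15, numpy 2.4.6, pandas 2.3.3 and limma 3.58.1, and were tested on simulated data. The members, the lists and the E-box were chosen with earlier results of these data known. All members were named, and of each other list those at least 2-fold apart, or otherwise up to 4, with defining markers below background, and exceptions are marked where they stand. The number of arrays limits the precision. Alternatives were normexp (offset 50), quantile, loess and median scaling, a minimum signal of 100, no filter, the value table, the brightest probe and a 1.5-fold threshold. Some genes of the lists are not reported here.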

Additional observations from a re-analysis of the deposited data

How the results depend on the processing

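Of 63 values of the 8 measured member genes under the alternatives, 46 moved by less than the spot spread, 17 by more, and 0 changed direction where the main difference was at least 2-fold. Some of the 46 could not move. For a gene with a single probe, the brightest-probe and filter settings return the same value or none. Median scaling shifts all genes by the same small amount. The direction was checked on Perp, Gjb2 and Pkp2 alone, the only members at least 2-fold apart. Perp ranged from -4.92 to -4.50, Gjb2 from -4.44 to -4.24, Pkp2 from -4.06 to -3.28 and Gjb1 from -0.67 to -0.32. The number of connexins at least 2-fold lower, 1, was 2 at a 1.5-fold threshold, where 14.5% of all genes were lower. The number of desmosome genes, 2, was 3 at that threshold and 1 with a minimum signal of 100, since Pkp2 had no value there. The connexin median was -0.57 with normexp and without a filter, -0.32 under quantile normalization, -0.42 with loess and -0.35 in the value table. The desmosome median was -0.74 with normexp, -0.40 with the minimum signal, -0.67 without a filter and -0.98 with the brightest probe. The difference of the medians was 0.50 under quantile normalization, 0.42 with loess, 0.10 without a filter, 0.46 in the value table, 0.31 with the brightest probe and -0.27 with the minimum signal. The median of all genes was -0.47 without a filter, where dim probes sit at the floors of their arrays. Of all genes, 979 were past 2-fold lower and 613 higher, against 572 and 297 with normexp and 606 and 262 with the minimum signal. Of the other desmosome genes 1 was past 2-fold lower, 0 with normexp or the minimum signal and 2 at 1.5-fold. Of the adherens junction genes 2 were, 1 with normexp or the brightest probe and 0 with the minimum signal, and of the hepatocyte factors 2 were, 1 with normexp and 4 at 1.5-fold. Other causes were not tested. No paired analysis was possible because each genotype had 1 array. Signals near background limit Gja1, Jup and the second Dsp probe.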

Other observations

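A further probe, named LOC100044500 and described in the scanner files as similar to Dsg2, is not a member by its name and was noticed after its values were seen. Its signals were 2.96 and 2.86, below the background call on both arrays, whereas both Dsg2 probes passed it.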
